A study of Homo sapiens with 22 samples.

Results

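HCT116 cells, an established human colorectal carcinoma line, were followed here through the later interval of a course of actinomycin D, from 2 to 4 h of treatment. The 6 total RNA libraries concerned were chosen by their titles, 3 taken at 2 h and 3 at 4 h, out of 22 libraries in the series. The question put to them was which transcripts were lost between 2 and 4 h, and which of those were lost in that interval alone. Both groups, and the HCT116 group at 0 h (n = 3) that dates the loss, were labelled with 5 µg/ml actinomycin D, and no group in this course was labelled as given another agent or carrying a changed gene. The series, which by its title concerns the RNA-binding protein Staufen1 and the FOXA1 transcript, also ran the same course in LS180, another colorectal cancer line (n = 3 at each time), and treated LS180 with siRNA in a separate experiment that was not used here. The labels do not say whether libraries of a group came from separate cultures, so p-values reflect only the variation among these libraries, and that may be technical.

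Actinomycin D slides into DNA and stops RNA polymerases, so that no new transcript replaces those that decay. Decay of most mRNAs starts with shortening of the poly(A) tail by the CCR4-NOT complex, followed by removal of the cap and digestion from either end. Proteins bound to the 3' untranslated region (3' UTR) can speed it up, among them proteins of the Pumilio family and proteins that bind AU-rich elements, and mRNAs of growth and stress regulators are known for short lives. Replication-dependent histone mRNAs carry no poly(A) tail and end in a stem-loop. Because expression is given as a share of the RNA that remains (CPM, counts scaled to a TMM-corrected library of 1e6), a transcript that decays more slowly than the average one rises in CPM without being made. In RNA from bulk cultures, fewer cells holding a transcript and less of it per cell cannot be told apart.

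The 6 libraries held 51.4 to 61.4 M counts (M stands for 1e6). Library 1 of each HCT116 time point stood apart from libraries 2 and 3: the second principal component of the 9 HCT116 libraries, with 6.94% of their variance, put libraries 1 at 0.41 to 0.50 and the others at -0.31 to -0.13. Results that rest on these libraries are therefore also given without them, and CPM values are listed in the order of libraries 1, 2 and 3. Epithelial genes marked the cells, with KRT8 at 1842 to 2045 and EPCAM at 343 to 403 CPM in the 6 libraries, and the 20 markers of colon epithelium summed to 4440 to 4592 CPM at 2 h and 4527 to 4690 CPM at 4 h. CDX1 and CEACAM5 were at 0 in all 6. The goblet cell genes summed to 17.3 to 25.6 CPM at 2 h and 18.6 to 27.2 CPM at 4 h. Fibroblast genes summed to 5.77 to 8.88 and 5.06 to 8.42 CPM, immune genes to 1.35 to 2.01 and 1.28 to 2.04 CPM, and endothelial genes to 0.503 to 0.603 and 0.356 to 0.462 CPM. MUC5AC, TFF1, TFF2, AGR3, CLCA1, ZG16, SPINK4 and FOXA2 were the goblet genes at 0 in all 6 libraries.

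Between 2 and 4 h, 1893 of 17256 genes fell (11% of those tested) and 837 rose (4.85%), by edgeR's quasi-likelihood test at an adjusted p under 0.05. Most changes were small. The median change was -0.50 on the log2 scale among genes that fell and 0.24 among those that rose, and 179 genes fell at least 2-fold while 18 rose that far. Of these, 81 of the falls and 1 of the rises were in genes that averaged at least 5 CPM. In 1855 of the genes that fell, all 3 libraries at 4 h lay below all 3 at 2 h, a separation that 2921 of the 17256 genes showed with or without a call (16.9%). Within library numbers, the median fall of the 1416 called genes with at least 5 CPM was -0.29 in libraries 1, -0.48 in libraries 2 and -0.49 in libraries 3. Libraries 1 thus showed the smallest falls, and without them 2219 genes fell and 1444 rose.

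The balance of falls and rises varied more between scalings and tools than the number of falls did. Rises made up 30.7% of all calls with TMM, 41.1% with RLE size factors, 12% with total library size and 47.8% with DESeq2, which changes the model as well as the scaling. They made up 1.29% when ribosomal protein genes were taken as the fixed reference, a choice that lowered the median change of all genes by 0.15, from 0.02 to -0.13 (log2). The falls numbered 1893, 1792, 1492, 1972 and 2143 in the same order. The number of rises was also sensitive to single libraries: it was 255 without 2 h library 2, 214 without 2 h library 3, 1270 without 4 h library 1, 251 without 4 h library 2 and 252 without 4 h library 3. With the replicate number as a block in the fit, 2229 genes fell and 1416 rose.

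In the first interval, from 0 to 2 h, 2957 genes fell (17.1%) and 2389 rose (13.8%). Both intervals use the 2 h libraries, so each gene's values are given side by side, and the difference between intervals was tested as a contrast of its own within the fit. The log2 change was lower in the second interval than in the first for 28 genes (0.162%) and higher for 491. The 28 became 13 without 2 h library 2, 8 without 2 h library 3, 56 without 4 h library 1, 14 without 4 h library 2, 52 without all libraries 1 and 60 with the replicate block. Of the 28, 21 fell from 2 to 4 h, and 18 of these had not fallen from 0 to 2 h (0.104% of all genes tested). These 18 are called the genes lost only in the second interval: 13 protein coding genes, 2 long noncoding RNAs, 2 pseudogenes and 1 small nuclear RNA. The rule did not ask that the 4 h level be below the 0 h level. Before their fall 10 of them had risen in CPM from 0 to 2 h, and the other 8 had no call there.

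BANP, whose product binds unmethylated DNA motifs and the nuclear matrix, held the best supported place in this set. Its level was 24.4, 22.8 and 22.5 CPM at 0 h, 25.7, 28.2 and 27.3 CPM at 2 h and 18.1, 17.7 and 17.8 CPM at 4 h. All 3 libraries at 4 h lay below every library of the other times, and the 2 h libraries were the highest. BANP fell 1.52-fold (log2 change of -0.60 with SE 0.08, adjusted p = 3.32e-05 by edgeR) after a first interval of 0.22 (edgeR adjusted p = 0.0365), and the intervals differed by -0.82 (SE 0.13, edgeR adjusted p = 0.000837). It kept its place under 19 of 20 other settings.

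ZNF711, a zinc finger protein that recruits a histone demethylase, gave the largest fall among the coding genes of this set that averaged at least 5 CPM. It stood at 13.6, 15.1 and 14.7 CPM at 2 h and 9.86, 7.48 and 8.62 CPM at 4 h, with no overlap (log2 change of -0.74 with SE 0.13, adjusted p = 0.000642 by edgeR), after 12, 13.2 and 13.3 CPM at 0 h. NIF3L1, which encodes a conserved protein of uncertain function, was at 36.4, 36.6 and 38.5 CPM at 2 h and 29.3, 29.3 and 29.4 CPM at 4 h (log2 change of -0.34 with SE 0.05, adjusted p = 0.000145 by edgeR). The 4 h values of NIF3L1 were nearly equal and lay under the lowest value at 2 h or at 0 h (35.5, 37.4 and 34.3 CPM).

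HERPUD1 encodes a membrane protein of the endoplasmic reticulum that takes part in the degradation of misfolded proteins, and it was the only gene of the stress response list lost only late. Its level was 39, 38.8 and 39 CPM at 0 h and 36.2, 36.1 and 35.7 CPM at 2 h, and then dropped to 28.6, 25.3 and 25.1 CPM (log2 change of -0.45 with SE 0.05, adjusted p = 1.05e-05 by edgeR). The first interval gave -0.11 (edgeR adjusted p = 0.106), yet every 2 h library of HERPUD1 lay below every 0 h library. Its place among the genes lost only late thus rests on the call threshold, and it was kept in 5 of 20 other settings. IST1, a partner of the ESCRT machinery that cuts membranes, stood at 123, 124 and 125 CPM at 2 h and 109.7, 99.4 and 103 CPM at 4 h (log2 change of -0.25 with SE 0.06, adjusted p = 0.00447 by edgeR). For IST1 the 2 h values were above those at 0 h (117, 112 and 111 CPM), and the 4 h values were below both groups.

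UHRF2, which binds methylated DNA and is a ubiquitin ligase, was at 50.5, 57.2 and 58.7 CPM at 2 h and 46.6, 47.6 and 47.8 CPM at 4 h (log2 change of -0.23 with SE 0.05, adjusted p = 0.00621 by edgeR). Its 4 h values lay within or just under the range of the 0 h values (49.6, 48.4 and 47 CPM), and the call was narrowly lost without 2 h library 3 (edgeR adjusted p = 0.0502). A return towards the 0 h level was also seen in RB1CC1, which encodes a scaffold protein needed to start autophagy, at 82.6, 78.6 and 80.8 CPM at 2 h and 76.6, 69 and 69.3 CPM at 4 h after 73, 69.9 and 65.5 CPM at 0 h (log2 change of -0.17 with SE 0.06, adjusted p = 0.0461 by edgeR). TMEM184C, a transmembrane protein gene, was at 48.3, 54.2 and 55.7 CPM at 2 h and 42.7, 43.5 and 43.9 CPM at 4 h (log2 change of -0.28 with SE 0.05, adjusted p = 0.00166 by edgeR), and its 4 h libraries were below all others. NMI, which encodes an interferon-induced partner of MYC and STAT proteins, was at 11.6, 10.6 and 11.5 CPM at 2 h and 9.01, 9.57 and 10.4 CPM at 4 h (log2 change of -0.22 with SE 0.07, adjusted p = 0.0437 by edgeR). The long noncoding RNA LINC00152 was at 11.7, 10.7 and 12.5 CPM at 2 h and 8.99, 8.96 and 9.97 CPM at 4 h (log2 change of -0.32 with SE 0.09, adjusted p = 0.0172 by edgeR), and it has a near-identical paralog with which its reads may be divided. Its 0 h values of 9.6, 9.45 and 9.58 CPM lay within the range of its 4 h values. Single libraries ended 3 of these calls: RB1CC1 without 2 h library 1 or 3 or 4 h library 2 or 3 (edgeR adjusted p = 0.0895 to 0.12), NMI without 2 h library 1 or 3 or 4 h library 1 or 2 (0.108 to 0.145), and LINC00152 without 2 h library 3 or 4 h library 2 (0.0981 and 0.0674).

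Another 8 genes complete the set. EDEM3, which trims sugars of misfolded glycoproteins, moved from 46.6, 47.9 and 52.9 to 46.7, 41 and 41.7 CPM (log2 change of -0.19 with SE 0.06, adjusted p = 0.0489 by edgeR), with library 1 at 4 h inside the 2 h range. EDEM3 was at 37.6, 41.6 and 36.6 CPM at 0 h, so its 4 h mean of 43.1 CPM was still above its 0 h mean of 38.6 CPM. MT-ND3, a complex I subunit encoded in mitochondrial DNA, was at 64.1, 89 and 89.7 CPM at 2 h and 66.4, 56.1 and 54.6 CPM at 4 h (log2 change of -0.45 with SE 0.11, adjusted p = 0.00698 by edgeR). Libraries 2 and 3 of MT-ND3 fell, while library 1 was flat, which left the groups overlapping. LIN37, part of the DREAM complex that represses cell cycle genes, was at 3.51, 3.75 and 3.25 CPM at 2 h and 2.17, 1.8 and 2.22 CPM at 4 h (log2 change of -0.76 with SE 0.13, adjusted p = 0.00051 by edgeR), without overlap.

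The noncoding RNA RP11-438N16.1 stood at 33.7, 32.5 and 34.6 CPM at 2 h and 26.5, 23.1 and 24.6 CPM at 4 h (log2 change of -0.44 with SE 0.06, adjusted p = 3.06e-05 by edgeR) and kept its place under 18 of 20 settings. PLEKHA8P1, a transcribed pseudogene, was at 2.89, 2.82 and 2.84 CPM at 2 h and 2.19, 1.74 and 2.06 CPM at 4 h (log2 change of -0.51 with SE 0.12, adjusted p = 0.00607 by edgeR). TNFSF13, a TNF family ligand gene, had 10 counts over the 3 libraries at 2 h and 0 at the other times, and the pseudogene H3F3AP6 had 11, 30 and 12 counts over the 3 libraries at 0, 2 and 4 h, so both calls rest on very few reads. RNU1-28P, a copy of the U1 small nuclear RNA gene, is described with the other U1 copies below.

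Membership of the 18 varied with the settings. Of 20 other settings, 8 genes kept their place in at least 10, and HERPUD1 did so in 5 and NMI and RB1CC1 in 6 each. The number of such genes was 6 without 2 h library 2, 3 without 2 h library 3, 35 without 4 h library 1, 6 without 4 h library 2, 11 without 4 h library 3 and 33 without all libraries 1. It was 35 with the replicate block, in which 15 of the 18 remained, and 2 with scaling to ribosomal protein genes, namely TNFSF13 and H3F3AP6. In LS180, which shares no library with HCT116, 11 of the 18 also fell from 2 to 4 h and H3F3AP6 rose. There 18.5% of all genes fell, and 85.1% of those that fell in HCT116. For the 18 the smallest edgeR adjusted p for a difference between the lines was 0.0621.

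**Figure D1:**
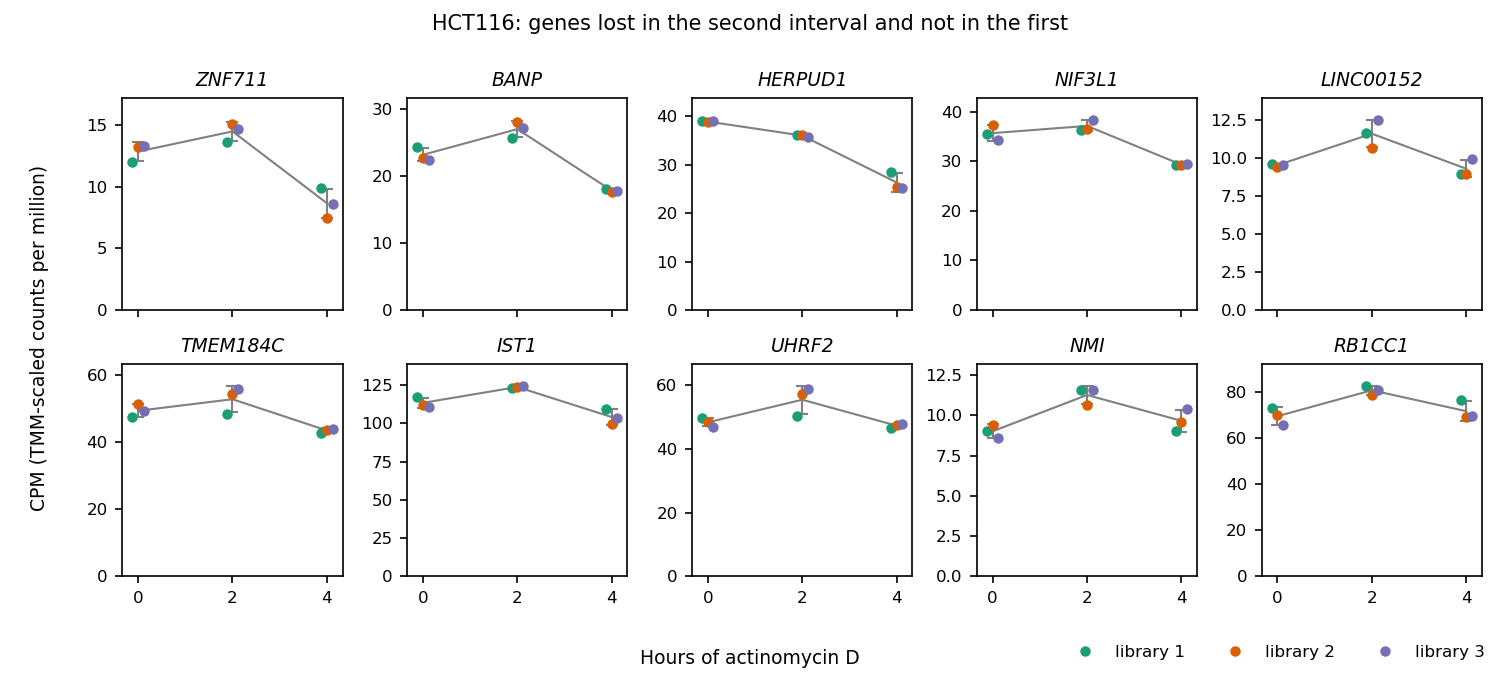
TMM-scaled CPM (y axes, each from 0) against hours of actinomycin D (x axes) for 10 named HCT116 genes lost only in the second interval, with at least 5 CPM and no overlap between 2 h and 4 h libraries. Points are single libraries coloured by number, lines join the means and bars are ± 1 SD (n = 3); the 4 h points sit below the 2 h points in every panel, and in ZNF711, BANP, LINC00152, IST1, UHRF2, NMI and RB1CC1 the 2 h points also sit above all 0 h points.

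Both 3' UTR windows shown next belong to coding genes of this set that averaged at least 5 CPM and hold a Pumilio element, TGTANATA on the transcript strand. It occurred in 3 of the 10 such genes with a 3' UTR in the reference (HERPUD1, IST1 and EDEM3) and in 31.0% of all 9139 coding genes of that level outside the histones. The windows are 30 bases of the GENCODE 29 transcripts (GRCh38) with the element in capitals, from chr16:56943610-56943639, plus strand, and chr16:71928901-71928930, plus strand, both within 3' UTR exons.
HERPUD1: gcatgtgtgttTGTACATAgaagtcataga
IST1: tgtagtataccTGTACATActtgtttcagg

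Falling late without an earlier call was far more common than a called difference between intervals. Of the 1893 genes that fell from 2 to 4 h, 1453 had also fallen from 0 to 2 h, with median changes of -0.69 in the first and -0.55 in the second interval. The other 440 had not, yet 333 of them were below 0 in the first interval, and their medians were -0.10 and -0.34. The difference between intervals was called for 18 of the 440, so for the rest the intervals were not told apart at this spread. The 10 genes of the 440 with the largest late fall were picked after their values were seen, from those with at least 5 CPM and no overlap, leaving out pseudogenes, unnamed clones and short noncoding RNAs.

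MPHOSPH10, a component of the small subunit processome that makes 18S ribosomal RNA, led them. It went from 49.9, 59.3 and 55.7 CPM at 0 h to 34.5, 40.7 and 42.7 CPM at 2 h and 17.2, 13.5 and 13 CPM at 4 h. The groups did not overlap in the second interval (log2 change of -1.43 with SE 0.20, adjusted p = 8.23e-05 by edgeR), and the first gave -0.48 (edgeR adjusted p = 0.0627). CXXC5, a zinc finger regulator of Wnt signalling, stood at 14.6, 15.7 and 16.1 CPM at 2 h and 9.98, 7.44 and 6.61 CPM at 4 h (log2 change of -0.94 with SE 0.19, adjusted p = 0.00221 by edgeR), and RBM5, a splicing regulator, at 56.1, 54.9 and 58.4 CPM at 2 h and 37.9, 26.8 and 28.8 CPM at 4 h (log2 change of -0.85 with SE 0.14, adjusted p = 0.000356 by edgeR). In both genes all 4 h libraries were under all 2 h libraries, as was required of every gene picked here.

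C16orf70, CTDP1, C12orf45, MOB3A, USP30 and JARID2 made up the rest of the 10 with ZNF711, with second-interval log2 changes of -0.76, -0.76, -0.71, -0.69, -0.65 and -0.64. CTDP1 encodes a phosphatase of the RNA polymerase II tail, USP30 a deubiquitinase on mitochondria and JARID2 a subunit of Polycomb repressive complexes. JARID2 was at 16.7, 21.1 and 21.6 CPM at 2 h and 14.2, 12.3 and 11.6 CPM at 4 h (log2 change of -0.64 with SE 0.13, adjusted p = 0.00189 by edgeR) against 20.9, 23.6 and 24.3 CPM at 0 h. CTDP1 lost its call without 2 h library 2, 4 h library 2 or 4 h library 3 (edgeR adjusted p = 0.064, 0.0536 and 0.066).

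NGDN, PDCD7 and DBR1 fell in both intervals and faster in the second, the only genes to do so. NGDN, another processome protein, was at 42.6, 48 and 44.5 CPM at 0 h, then 34.8, 38.1 and 39.6 CPM at 2 h and 21.7, 19.97 and 21.1 CPM at 4 h. The first interval gave -0.26, the second -0.84 and the difference -0.58 (SE 0.10, edgeR adjusted p = 0.00229). PDCD7, a protein of the minor spliceosome, gave -0.38 and -0.87, and DBR1, the enzyme that opens intron lariats, -0.37 and -0.76. For PDCD7 the difference was -0.49 (SE 0.12, edgeR adjusted p = 0.0378) and for DBR1 it was -0.39 (SE 0.10, edgeR adjusted p = 0.0346).

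The other 7 of the 28 genes were not called lower late. They had risen from 0 to 2 h and had no call from 2 to 4 h. P4HA2, a collagen prolyl hydroxylase, was at 27.3, 28.8 and 28.9 CPM at 0 h, 36.4, 39.1 and 38.7 CPM at 2 h and 38.4, 36.9 and 39.1 CPM at 4 h. NDRG1, a stress-responsive gene, was at 152, 152 and 156 CPM at 2 h and 157, 131 and 138 CPM at 4 h after 124, 122 and 127 CPM at 0 h, and its groups overlapped. DNAJB4, a heat shock protein, the mitochondrial transcripts MT-CO3 and MT-RNR1, the Cajal body RNA SCARNA9 and the noncoding RNA RP11-6N17.4 were the rest. MT-CO3 rose in the first interval (log2 change 1.03) and then changed by 0.09. In the second interval SCARNA9 changed by 0.23 and DNAJB4 by -0.18, with every 4 h library of DNAJB4 below every 2 h library.

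Among genes with at least 5 CPM and no overlap, pseudogenes, unnamed clones and short noncoding RNAs aside, the 10 deepest falls of the second interval were in replication-dependent histone genes, which package newly made DNA. Of 65 tested, 39 fell (60%, against 11% of all genes tested), and their median change was -1.30 against 0.02 over all genes tested. They had already lost most of their RNA: the median of the first interval was -3.89, and their summed level went from 10516 to 13265 CPM at 0 h to 608 to 1021 CPM at 2 h and 285 to 461 CPM at 4 h. Loss was slower in the second interval than in the first for 37 of the 65.

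HIST1H1E, which encodes a linker histone, was at 67.2, 34.6 and 51.8 CPM at 2 h and 18.2, 8.35 and 7.34 CPM at 4 h (log2 change of -2.17 with SE 0.32, adjusted p = 0.00012 by edgeR), without overlap. HIST1H4D, an H4 gene, was at 32.7, 20.9 and 30.01 CPM at 2 h and 10.9, 6.09 and 4.26 CPM at 4 h (log2 change of -1.96 with SE 0.27, adjusted p = 5.67e-05 by edgeR), and HIST1H3B, an H3 gene, at 23.8, 10.8 and 19.7 CPM at 2 h and 6.56, 2.67 and 2.11 CPM at 4 h (log2 change of -2.23 with SE 0.39, adjusted p = 0.000645 by edgeR). Every 4 h value of these genes lay below every 2 h value, as their selection required, and library 1 was the highest at both times. HIST2H2AB, HIST2H2BF, HIST1H2AI, HIST1H4E, HIST1H3H and HIST1H4A fell by 2.21, 2.04, 1.84, 1.84, 1.77 and 1.77 on the log2 scale. Histone copies share sequence, so their separate levels are uncertain: HIST2H3C, with the largest fall (log2 change of -2.53 with SE 0.44, adjusted p = 0.000575 by edgeR), has the same 3' UTR length and stem-loop window as HIST2H3A, which gave 0.17.

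The stem-loop of these mRNAs can be seen in the reference, and 3 examples are shown because it is the known 3' end of this class. A perfect inverted repeat of 6 bases around a 4-base loop lay in the first 100 bases of the 3' UTR in 13 of 21 histone genes with a 3' UTR in GENCODE 29 (61.9%), and in 612 of 13630 other coding genes (4.49%). The commonest form was in 10 histone genes and in 0 of the others. Of the 13 histone genes with any such repeat 9 fell from 2 to 4 h, as did 6 of the 8 without one. Only 21 of the 65 tested histone genes had a 3' UTR there, so these counts leave out the rest. The windows lie at chr1:149811878-149811907, minus strand, chr6:27808640-27808669, plus strand, and chr6:26285124-26285153, minus strand (GRCh38, 3' UTR), with stem and loop in capitals.
HIST2H2BF: ccccaaaGGCTCTTTTCAGAGCCacttcag
HIST1H2AI: aaccaaaGGCTCTTTTCAGAGCCacctaca
HIST1H4H: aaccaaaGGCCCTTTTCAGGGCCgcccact

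Outside the histones the largest falls with at least 5 CPM and no overlap were ranked after values were seen, leaving out pseudogenes, unnamed clones and short noncoding RNAs. BTG1, an antiproliferative protein that binds the CCR4-NOT deadenylase, led this ranking and was at 7.73, 7.15 and 7.87 CPM at 2 h and 3.69, 2.47 and 2.1 CPM at 4 h (log2 change of -1.45 with SE 0.17, adjusted p = 1.48e-05 by edgeR) after 21.3, 17.6 and 18.8 CPM at 0 h. Its first interval gave -1.34 (edgeR adjusted p = 1.48e-06). SERTAD1, a coactivator of E2F, was at 8.7, 7.76 and 8.43 CPM at 2 h and 4.03, 2.39 and 2.77 CPM at 4 h (log2 change of -1.42 with SE 0.19, adjusted p = 4.27e-05 by edgeR). RNF139, a ubiquitin ligase of the endoplasmic reticulum, was at 24.2, 20.3 and 21.8 CPM at 2 h and 12, 6.98 and 6.36 CPM at 4 h (log2 change of -1.38 with SE 0.16, adjusted p = 9.82e-06 by edgeR). For these 3 genes no 4 h library reached a 2 h library, as the ranking required.

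HPS6, a subunit of a complex that builds lysosome-related organelles, was at 19.4, 20.9 and 23.8 CPM at 2 h and 9.92, 7.93 and 6.91 CPM at 4 h (log2 change of -1.37 with SE 0.10, adjusted p = 1.4e-07 by edgeR). SPATA2L, ZNF48, MAD2L1BP, TRIB3, KLF5 and TSC22D1 fell too, with log2 changes of -1.35, -1.34, -1.30, -1.25, -1.23 and -1.23. Of these, MAD2L1BP silences the spindle checkpoint, TRIB3 is a stress-induced pseudokinase, KLF5 is a transcription factor of intestinal crypts and TSC22D1 is a TGF-beta responsive regulator. TSC22D1 was at 107, 118 and 119.9 CPM at 2 h and 55.9, 47.3 and 44.2 CPM at 4 h (log2 change of -1.23 with SE 0.09, adjusted p = 1.12e-07 by edgeR).

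**Figure D2:**
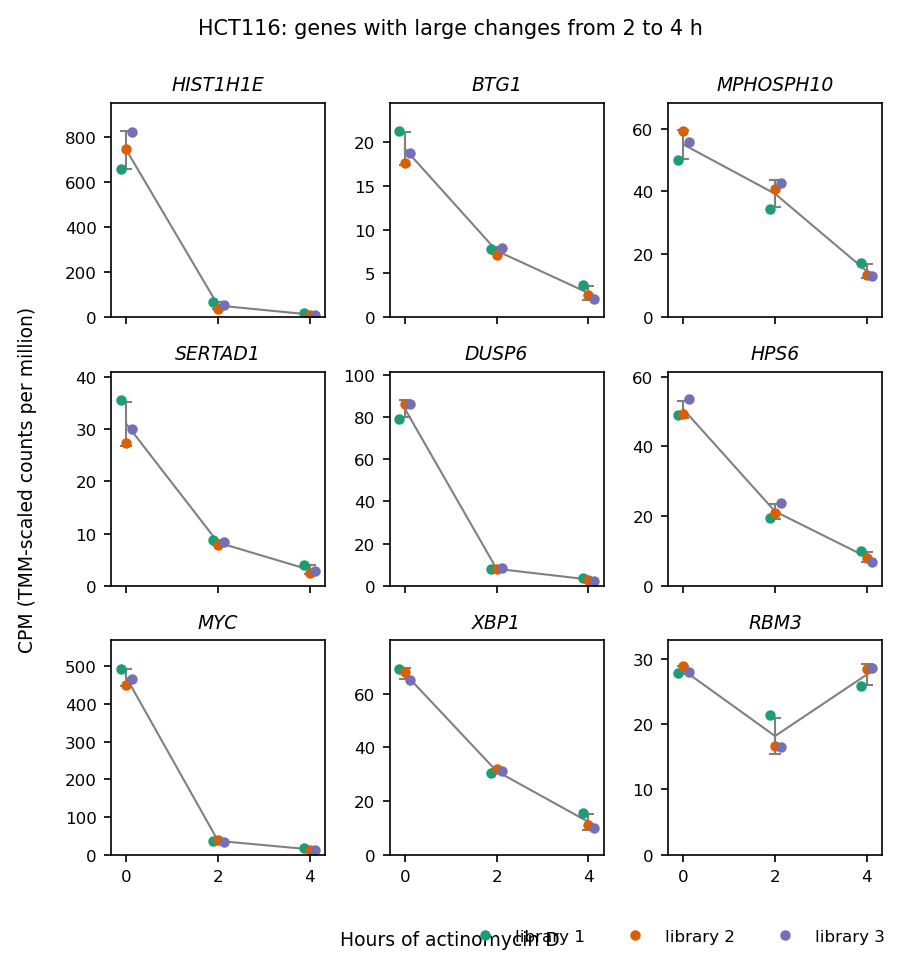
TMM-scaled CPM (y axes, each from 0) against hours of actinomycin D (x axes) in HCT116 for 8 genes with falls from 2 to 4 h and for RBM3, which rose. Points are single libraries coloured by number, lines join the means and bars are ± 1 SD (n = 3); HIST1H1E, DUSP6 and MYC lost most of their level before 2 h, and RBM3 returned to its 0 h level.

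The list counts that follow stand beside shares of 11% lower and 4.85% higher over all genes tested. Lists whose share of falls lay near 11% included the NF-kB list (12.5%), cholesterol synthesis (14.3%) and the proteins binding AU-rich and Pumilio elements (12.5%). Immediate early genes respond within minutes to growth signals. Of 43 tested, 25 fell and 1 rose, with a median change of -0.60 over all 43, after a median of -1.86 and 40 falls in the first interval. FOS, JUN and EGR1, with log2 changes of -0.02, -0.31 and -0.27, were among those not called. MYC, the growth-promoting transcription factor, was at 37.4, 37.9 and 34.8 CPM at 2 h and 17.5, 12.7 and 12.7 CPM at 4 h (log2 change of -1.36 with SE 0.10, adjusted p = 1.81e-07 by edgeR) after 493, 449 and 468 CPM at 0 h. KLF4, which restrains growth of gut epithelium, was at 8.93, 9.55 and 8.68 CPM at 2 h and 3.95, 4.01 and 3.59 CPM at 4 h (log2 change of -1.23 with SE 0.09, adjusted p = 1.4e-07 by edgeR), and MCL1, a survival protein of the BCL2 family, at 108, 117 and 119.6 CPM at 2 h and 64.4, 54.3 and 57.1 CPM at 4 h (log2 change of -0.97 with SE 0.07, adjusted p = 1.12e-07 by edgeR). None of these 3 overlapped between groups, and for MYC and KLF4 the loss was slower than in the first interval, by 2.32 (SE 0.18, edgeR adjusted p = 4.68e-07) and 1.08 (SE 0.15, edgeR adjusted p = 0.000238). HES4, a Notch target, was the member that rose (log2 change of 0.37 with SE 0.12, adjusted p = 0.0425 by edgeR).

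Of 20 feedback inhibitors of ERK signalling 10 fell, with a median of -0.47. DUSP6, the ERK phosphatase, was at 8.22, 7.76 and 8.3 CPM at 2 h and 3.66, 2.91 and 2.54 CPM at 4 h (log2 change of -1.41 with SE 0.12, adjusted p = 4.71e-07 by edgeR) after 79.1, 86.1 and 86.3 CPM at 0 h. DUSP5 and DUSP4, related phosphatases, fell by 1.21 and 1.01 on the log2 scale (edgeR adjusted p = 7.49e-07 and 4.17e-06). The other members that fell were DUSP14, DUSP16, SPRY4, SPRED1, SPRED2, ERRFI1 and PHLDA1.

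Targets of p53 fell in 11 of 29 cases (median -0.23). SESN2, a stress sensor upstream of mTORC1, was at 4.29, 5.37 and 5.14 CPM at 2 h and 2.32, 2.02 and 1.95 CPM at 4 h (log2 change of -1.23 with SE 0.14, adjusted p = 1.15e-05 by edgeR). BTG2, an antiproliferative relative of BTG1, changed by -0.95 and PLK3, a stress-activated kinase, by -0.59. Wnt targets and stem cell genes fell in 8 of 24 cases (median -0.08), and in 5 without libraries 1. SOX9, a crypt transcription factor, was at 16.6, 20.2 and 19.7 CPM at 2 h and 11, 9.26 and 8.78 CPM at 4 h (log2 change of -0.96 with SE 0.11, adjusted p = 9.55e-06 by edgeR), and DKK1, a secreted Wnt inhibitor, at 34.9, 29.7 and 30.7 CPM at 2 h and 18.5, 10.9 and 11.8 CPM at 4 h (log2 change of -1.20 with SE 0.18, adjusted p = 0.000145 by edgeR). Both genes were lower in every 4 h library than in any 2 h library. RNF43 and ZNRF3, which remove Wnt receptors from the surface, were also among the 8.

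Among 19 cyclins and CDK inhibitors 4 fell (median -0.12). CDKN1B, the inhibitor p27, was at 8.28, 8.91 and 8.1 CPM at 2 h and 5.48, 5.32 and 5.22 CPM at 4 h (log2 change of -0.66 with SE 0.09, adjusted p = 3.81e-05 by edgeR). CCNT2 and CCNT1, cyclins of the transcription elongation kinase P-TEFb, changed by -0.52 and -0.36, and CDC25A completes the 4. KRAB zinc finger genes, a large family of repressors, fell in 36 of 78 cases with a median of -0.34, after 60 falls in the first interval. ZNF92 was at 7.18, 10.4 and 9.25 CPM at 2 h and 3.77, 3.76 and 4.28 CPM at 4 h (log2 change of -1.18 with SE 0.12, adjusted p = 5.01e-06 by edgeR), and ZNF266 changed by -0.68. In the BMP, SMAD and ID list 6 of 23 fell (median -0.29), in the circadian list 6 of 18 with 2 rises (median -0.11), in the NF-kB list 3 of 24 (median -0.17) and in the MYC network 2 of 12 (MYC and MGA, median -0.08). Without libraries 1 the falls numbered 13 in the BMP, SMAD and ID list (11 with the replicate block), 6 in the NF-kB list and 4 in the MYC network.

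Genes of the unfolded protein and integrated stress responses fell in 11 of 23 cases, with a median of -0.37. XBP1, the transcription factor that the stress sensor IRE1 activates by splicing, was at 30.4, 31.8 and 31.2 CPM at 2 h and 15.6, 11.2 and 9.95 CPM at 4 h (log2 change of -1.34 with SE 0.14, adjusted p = 5.91e-06 by edgeR). CEBPB, another transcription factor, was at 8.58, 8.57 and 10.4 CPM at 2 h and 4.55, 4.65 and 4.16 CPM at 4 h (log2 change of -1.04 with SE 0.09, adjusted p = 4.72e-07 by edgeR). Both lay under their 2 h values in all 3 libraries. EIF2AK3, DDIT4, PPP1R15B, CHAC1, DNAJB9 and CEBPG fell as well, besides SESN2, TRIB3 and HERPUD1. In cholesterol synthesis 4 of 28 genes fell, SQLE and INSIG1 among them, and 3 rose (FDPS, LSS and SREBF1). Rises were 5 without libraries 1 and 6 with the replicate block. SQLE, squalene epoxidase, changed by -0.42 and INSIG1, which retains the SREBP pathway in the endoplasmic reticulum, by -0.40. The median of this list was 0.07, and -0.10 with scaling to ribosomal protein genes.

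Transcripts of the decay machinery itself changed unevenly. Of 47 genes for deadenylation, decapping and the exosome, 11 fell and 1 rose (WDR61; 3 rose without libraries 1 or with the replicate block, and 5 with DESeq2), with a median of 0.01 that became -0.16 under ribosomal protein scaling. The falls were in the deadenylase genes CNOT2, CNOT4 and CNOT8, in TOB1, TOB2, BTG1 and BTG2, which recruit the deadenylase, in the decapping genes DCP1A and DCP1B, and in the exosome genes EXOSC3 and EXOSC4. DCP1B was at 10.7, 11.6 and 11.3 CPM at 2 h and 7.43, 6.61 and 6.95 CPM at 4 h (log2 change of -0.68 with SE 0.08, adjusted p = 1.48e-05 by edgeR) and TOB2 at 36.5, 37 and 35.9 CPM at 2 h and 25.7, 24 and 21.7 CPM at 4 h (log2 change of -0.61 with SE 0.08, adjusted p = 2.16e-05 by edgeR). In each of these genes the groups did not overlap.

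Pumilio proteins recruit that deadenylase to mRNAs. Of 16 genes for proteins binding AU-rich and Pumilio elements 2 fell, PUM2 among them (median -0.01). PUM2 was at 65.5, 66.5 and 66.4 CPM at 2 h and 53.5, 36.9 and 38.9 CPM at 4 h (log2 change of -0.62 with SE 0.11, adjusted p = 0.000483 by edgeR), with a first interval of -0.19 (edgeR adjusted p = 0.185). TIA1, a stress granule protein, was at 39.96, 42 and 44.9 CPM at 2 h and 42.5, 52 and 52.9 CPM at 4 h and was not called (log2 change of 0.22 with SE 0.08, adjusted p = 0.0794 by edgeR), but was called higher with the replicate block (edgeR adjusted p = 0.0144) and without 4 h library 1 (0.0081).

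Among 21 genes of Staufen-mediated and nonsense-mediated decay, 2 fell and 3 rose, with a median of 0.09 that became -0.08 with ribosomal protein scaling. SMG8, a regulator of the kinase SMG1, was at 35.9, 41.8 and 42.6 CPM at 2 h and 21.9, 22.5 and 21.9 CPM at 4 h (log2 change of -0.86 with SE 0.07, adjusted p = 1.6e-07 by edgeR), and PNRC2, which links UPF1 to decapping, changed by -0.24. UPF3B, a partner of the exon junction complex, was at 22, 22.6 and 21.5 CPM at 2 h and 26.4, 28.4 and 30.1 CPM at 4 h (log2 change of 0.36 with SE 0.06, adjusted p = 0.000516 by edgeR), a rise not called with ribosomal protein scaling. STAU1 itself was at 88.2, 96.8 and 95 CPM at 2 h and 94.8, 95.7 and 95.5 CPM at 4 h, overlapping, with a change of 0.03 (SE 0.05, edgeR adjusted p = 0.762). FOXA1, a transcription factor of endodermal epithelium, was near the limit of these data, at 0.461, 0.7 and 0.503 CPM at 2 h and 0.431, 0.277 and 0.142 CPM at 4 h. Its libraries did not overlap, but the call failed (log2 change of -0.94 with SE 0.34, adjusted p = 0.0686 by edgeR), and it passed with the replicate block (edgeR adjusted p = 0.0446). It also passed without 4 h library 1 (edgeR adjusted p = 0.0168), without all libraries 1 (0.0112) and with DESeq2 (0.00839). FOXA3, its relative, was at 1.81, 1.31 and 1.58 CPM at 2 h and 0.99, 0.692 and 0.515 CPM at 4 h (log2 change of -1.08 with SE 0.22, adjusted p = 0.00219 by edgeR), and FOXA2 was at 0 in all 6 libraries.

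The small subunit processome, a list drawn up after MPHOSPH10 and NGDN had been seen, had 9 of 43 members lower and 1 higher (NOP58; 3 without libraries 1 or with DESeq2), with a median of -0.02. UTP23 was at 32.4, 29.8 and 29.3 CPM at 2 h and 20.6, 18 and 17.8 CPM at 4 h (log2 change of -0.70 with SE 0.08, adjusted p = 1.45e-05 by edgeR) and WDR43 at 205, 229 and 237 CPM at 2 h and 156, 137 and 142 CPM at 4 h (log2 change of -0.62 with SE 0.08, adjusted p = 4.02e-05 by edgeR), both without overlap. IMP3, UTP15, RCL1, LTV1 and DIEXF were the other members that fell.

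**Figure D3:**
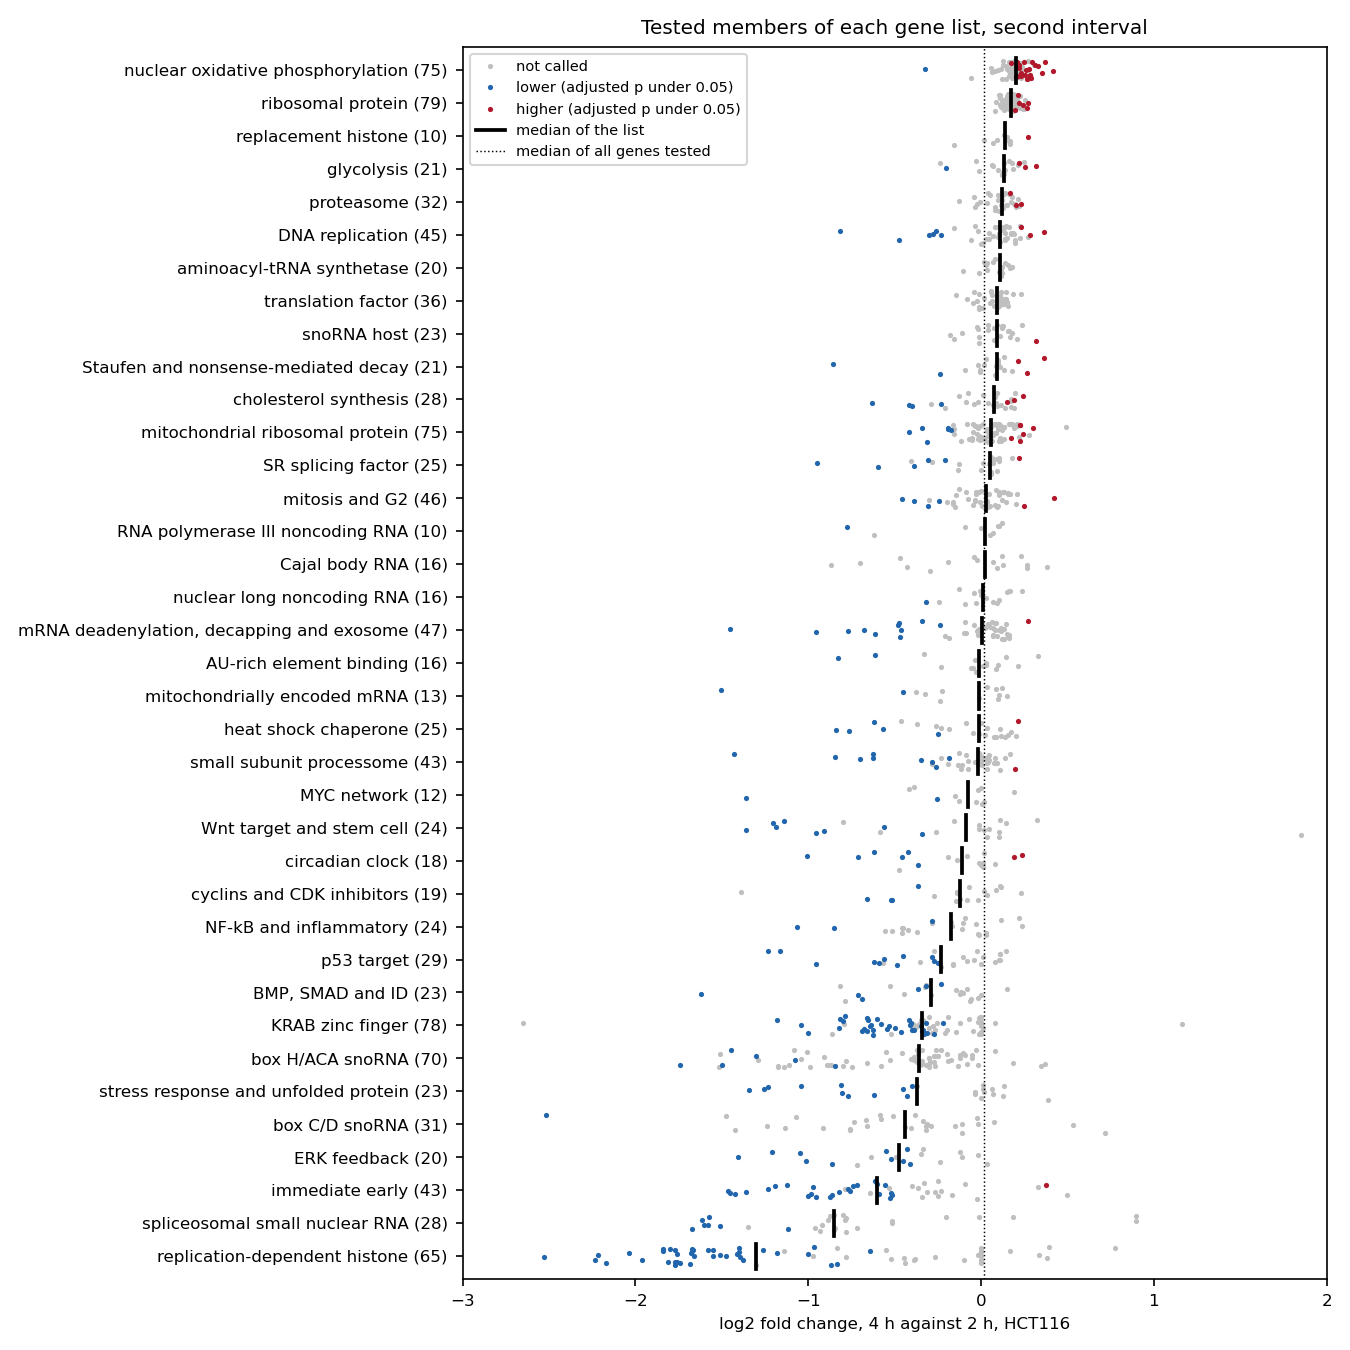
Log2 fold change from 2 to 4 h in HCT116 (x axis) of the tested members of 37 gene lists (rows, with the number of members), as grey points where not called, blue where lower and red where higher at an edgeR adjusted p under 0.05; 4 members lie outside the axis. Black bars are list medians and the dotted line is the median of all 17256 genes tested, 0.02; medians run from -1.30 for replication-dependent histones to 0.20 for nuclear oxidative phosphorylation.

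In nuclear-encoded oxidative phosphorylation 22 of 75 genes rose, where 4.85% of all genes did, and NDUFV3 fell, with a median of 0.20 that was 0.03 under ribosomal protein scaling, where 2 genes were higher. Rises numbered 35 without libraries 1 and 49 with DESeq2. COX6C, a subunit of cytochrome c oxidase, was at 136, 117 and 117 CPM at 2 h and 157, 163 and 173 CPM at 4 h (log2 change of 0.41 with SE 0.09, adjusted p = 0.00546 by edgeR), and NDUFV1, a core subunit of complex I, at 100.2, 98.5 and 94.1 CPM at 2 h and 117, 131 and 130.5 CPM at 4 h (log2 change of 0.37 with SE 0.06, adjusted p = 0.000151 by edgeR). Against them NDUFV3, an accessory subunit of the same complex, was at 34.6, 33.2 and 35.2 CPM at 2 h and 28.3, 27.3 and 26.7 CPM at 4 h (log2 change of -0.32 with SE 0.06, adjusted p = 0.000509 by edgeR). The call of NDUFV1 was lost with ribosomal protein scaling (edgeR adjusted p = 0.153). In each gene the 4 h libraries were clear of the 2 h libraries.

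Of 79 ribosomal protein genes 6 rose (RPLP1, RPLP2, RPL11, RPL22 and RPS9 among them), their median was 0.17 and their changes ran from 0.08 to 0.27. DESeq2 called 32 of them higher, and 13 rose without libraries 1. RPL11 was at 771, 696 and 699 CPM at 2 h and 844, 869 and 893 CPM at 4 h (log2 change of 0.27 with SE 0.08, adjusted p = 0.0206 by edgeR), a call lost without any one of libraries 2 or 3 of either time (edgeR adjusted p = 0.0799 to 0.105), as were those of RPL22 (0.0792 to 0.167) and RPLP2 (0.0557 to 0.111). Translation factors, aminoacyl-tRNA synthetases, proteasome, glycolysis and DNA replication genes had medians of 0.10, 0.11, 0.12, 0.13 and 0.11, which became -0.08, -0.07, -0.05, -0.04 and -0.07 under ribosomal protein scaling. By edgeR 0 of 36 translation factors and 0 of 20 synthetases rose. At an unadjusted p under 0.05 these were 7 and 4, with DESeq2 8 and 4, without libraries 1 they were 1 and 4, and with the replicate block 1 and 5. Within the other lists 3 of 32 proteasome genes rose, 3 of 21 glycolytic genes rose and the glucose transporter SLC2A1 fell, and of 45 replication genes 3 rose and 6 fell, among them the licensing factors CDC6 and CDT1. More replication genes rose than fell in other settings, 12 against 6 without libraries 1, 12 against 7 with the replicate block and 10 against 6 with DESeq2. Proteasome rises numbered 11 without libraries 1 or with DESeq2 and 5 with the replicate block, and glycolytic rises 5 with DESeq2.

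Further lists were mixed. Mitochondrial ribosomal proteins had 6 falls and 6 rises in 75, and mitosis and G2 genes 4 falls and 2 rises in 46. The SR splicing factor list, which also holds CLK kinases, had 5 falls (SRSF4, CLK1, CLK3, CLK4 and RSRC2) and 1 rise (SRSF9) in 25. Heat shock chaperones had 5 falls and 1 rise in 25. Without libraries 1 the rises were 9 in mitosis and G2 genes and 2 each in the SR list and chaperones, and with DESeq2 12 in mitochondrial ribosomal proteins. Replacement histones, whose mRNAs have poly(A) tails, had 1 rise (H2AFY) in 10 (3 without libraries 1) and a median of 0.14, and snoRNA host genes 1 rise (SNHG6) in 23 (2 without libraries 1) and a median of 0.09. Under ribosomal protein scaling these last medians were -0.03 and -0.08, and of the 28 genes that then rose 2 were oxidative phosphorylation genes and 1 a mitosis gene.

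The largest single rise among genes with at least 5 CPM and no overlap, leaving out pseudogenes, unnamed clones and short noncoding RNAs, was in RBM3, an RNA-binding protein induced by cold. Outside these limits 1 called gene with at least 5 CPM rose at least 2-fold, by 3.12 on the log2 scale. RBM3 went from 27.8, 29 and 28 CPM at 0 h to 21.4, 16.7 and 16.5 CPM at 2 h and back to 25.8, 28.4 and 28.6 CPM at 4 h. The second interval gave 0.60 (SE 0.09, edgeR adjusted p = 0.000187), the first -0.64 (edgeR adjusted p = 3.43e-05), and the difference was 1.24 (SE 0.16, edgeR adjusted p = 0.000128). C1orf63, of uncertain function, followed the same course, at 14.1, 11.4 and 11.4 CPM at 0 h, then 9.76, 8.53 and 9.31 CPM at 2 h and 12.7, 12.4 and 12.2 CPM at 4 h.

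ATF6B, a membrane-bound stress transcription factor, was at 11.9, 8.96 and 8.27 CPM at 2 h and 14.7, 14.1 and 13.9 CPM at 4 h (log2 change of 0.56 with SE 0.10, adjusted p = 0.00069 by edgeR), and SAT1, which acetylates polyamines, at 81.6, 78.1 and 75.3 CPM at 2 h and 111, 106 and 109 CPM at 4 h (log2 change of 0.47 with SE 0.08, adjusted p = 0.000477 by edgeR). RBM3, ATF6B and SAT1 were called under all settings tried for them. The other rises of the 10, in KIFC2, GRB14, WDR90, SH3GLB2, CPNE7, NPDC1 and C1orf63, were 0.53, 0.53, 0.48, 0.45, 0.45, 0.44 and 0.43, and none of them was called with ribosomal protein scaling. In KIFC2, WDR90, SH3GLB2, CPNE7 and NPDC1 the call was also lost without 2 h library 2 or 2 h library 3, with edgeR adjusted p-values of 0.074 to 0.156. It was lost as well without any 4 h library in KIFC2 (0.0545 to 0.0911), without 4 h library 2 in WDR90 (0.128), and without 4 h library 1 in SH3GLB2 (0.0502) and CPNE7 (0.0572). By class, 793 of 13793 coding genes rose and 1788 fell, while 18 of 1839 long noncoding RNAs rose and 36 fell.

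Small noncoding RNAs behaved differently between libraries. Of 28 spliceosomal small nuclear RNAs 7 fell (15 without libraries 1, 13 with ribosomal protein scaling), with a median of -0.85. Of 70 box H/ACA snoRNAs, which guide pseudouridylation, 6 fell (10 without libraries 1, 11 with ribosomal protein scaling), with a median of -0.36. That is 8.57% of these snoRNAs, where 11% of all genes tested fell. RNU1-1, a U1 gene, was at 121, 337 and 222 CPM at 2 h and 115, 43.8 and 62.8 CPM at 4 h (log2 change of -1.62 with SE 0.39, adjusted p = 0.00846 by edgeR). Libraries 2 and 3 fell steeply, while library 1 was nearly flat, and the call was lost without 2 h library 2 (edgeR adjusted p = 0.0566). RNU1-28P read 121, 337 and 229.7 CPM at 2 h and 115, 43.8 and 62.8 CPM at 4 h and RNU1-3 121, 323 and 229.7 CPM at 2 h and 115, 43.8 and 62.8 CPM at 4 h. The call of RNU1-3 was lost without 2 h library 2 or 4 h library 2 (edgeR adjusted p = 0.0604 and 0.0568). These copies share sequence, so their separate levels are uncertain.

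SNORA53 was at 2.02, 4.11 and 7.49 CPM at 2 h and 1.6, 1.01 and 1.44 CPM at 4 h (log2 change of -1.74 with SE 0.44, adjusted p = 0.0109 by edgeR), SNORA23 at 4.84, 12.7 and 12.4 CPM at 2 h and 4.5, 3.34 and 4.28 CPM at 4 h (log2 change of -1.30 with SE 0.36, adjusted p = 0.0185 by edgeR), and SNORA64 at 2.61, 6.73 and 8 CPM at 2 h and 1.82, 2.12 and 2.2 CPM at 4 h (log2 change of -1.50 with SE 0.42, adjusted p = 0.0212 by edgeR). In all 3 genes libraries 2 and 3 were above library 1 at 2 h and library 1 changed least. Leaving out single libraries ended these calls, without 2 h library 3 for all 3 (edgeR adjusted p = 0.0999, 0.0884 and 0.12). SNORA53 also lost its call without 4 h library 2 (0.0558). SNORA23 did so without library 2 of either time or 4 h library 3 (0.0534 to 0.0886), and SNORA64 without 2 h library 2 or any 4 h library (0.056 to 0.0762). The share of short noncoding RNA ran from 16.9 to 18.3% at 2 h and from 16.7 to 17% at 4 h, and its part in these falls was not tested. SNORD118 was the one of 31 box C/D snoRNAs that fell (4 of 32 without libraries 1), and RNY3 the one of 10 RNA polymerase III transcripts.

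Mitochondrially encoded mRNAs are made by a polymerase of their own. Of 13, 2 fell: MT-ND3 and MT-ND6, the one mRNA encoded on the light strand. Without libraries 1, 5 of the 13 fell and their median went from -0.01 to -0.17. MT-ND6 was at 7.63, 12.9 and 10.3 CPM at 0 h, then 1.26, 1.62 and 1.46 CPM at 2 h and 0.463, 0.494 and 0.569 CPM at 4 h (log2 change of -1.50 with SE 0.24, adjusted p = 0.000303 by edgeR), without overlap. MT-ND2 was at 17.3, 18 and 18.2 CPM at 2 h and 18, 11.3 and 11.9 CPM at 4 h and was not called (log2 change of -0.37 with SE 0.15, adjusted p = 0.093 by edgeR). It was called without 4 h library 1 (edgeR adjusted p = 0.00211) and without all libraries 1 (0.00327).

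Sequence features of the 3' UTR were read for 9153 of 9187 coding genes with at least 5 CPM (99.6%), from the transcript with the longest 3' UTR in GENCODE 29. A Pumilio element stood in 24 of 53 non-histone genes that fell at least 2-fold (45.3%), 572 of 1301 that fell less (44.0%), 2107 of 7027 without a call and 127 of 758 that rose (16.8%). Length differed too, with median 3' UTRs of 991, 1793, 1472 and 854.5 bases in the same order. Among genes with a 3' UTR of 1000 to 2000 bases it stood in 7 of 14, 134 of 336 (39.9%), 435 of 1678 (25.9%) and 32 of 174 genes (18.4%) in that order. The share was 43.8% in genes that fell late without an earlier call and 44.1% in those that fell in both intervals. The counts are a description with no test, since genes are not replicates.

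The AU-rich nonamer TTATTTATT, read on the transcript strand, was rarer and less graded, at 11.3, 12.3, 9.31 and 4.75% of the same groups and 9.37% of all. Within 3' UTRs of 1000 to 2000 bases it stood in 3 of 14 genes, 7.44%, 7.21% and 2.87%. Longer transcripts fell more often: over 4 equal bins of effective length, from short to long, 7.53, 15.5, 17.6 and 18.7% of genes fell. Rises took 13.3, 10.9, 6 and 2.93% of the same bins. Length and the elements move together, and their separate parts were not tested. With effective length as an offset in the fit, 1417 genes fell and 554 rose. That offset adjusts for differences in a gene's effective length between libraries, and not for length differences between genes.

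Windows of genes that fell are shown for both elements, among them PUM2, whose own 3' UTR holds the Pumilio element. In capitals are the Pumilio element in the first 3 and the nonamer in the last 3, each the first match in the 3' UTR, on GRCh38 at chr12:89348741-89348770, minus strand, chr13:73076425-73076454, plus strand, chr2:20251142-20251171, minus strand, chr1:181092443-181092472, plus strand, chr13:73077177-73077206, plus strand, and chr1:44805900-44805929, plus strand. KLF5 holds 3 Pumilio elements, and DUSP6 and PUM2 hold 2 each.
DUSP6: catttgattatTGTAAATAtttgatcttga
KLF5, Pumilio element: attcaaaatttTGTAAATAtgcaaatcagc
PUM2: gtttatagagaTGTATATAgaattatagtc
IER5: gtgtcttcctTTATTTATTtatttatttaa
KLF5, nonamer: ttgtttatctTTATTTATTttgtggtaata
PLK3: tggaccacttTTATTTATTgtcagacactt

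**Figure D4:**
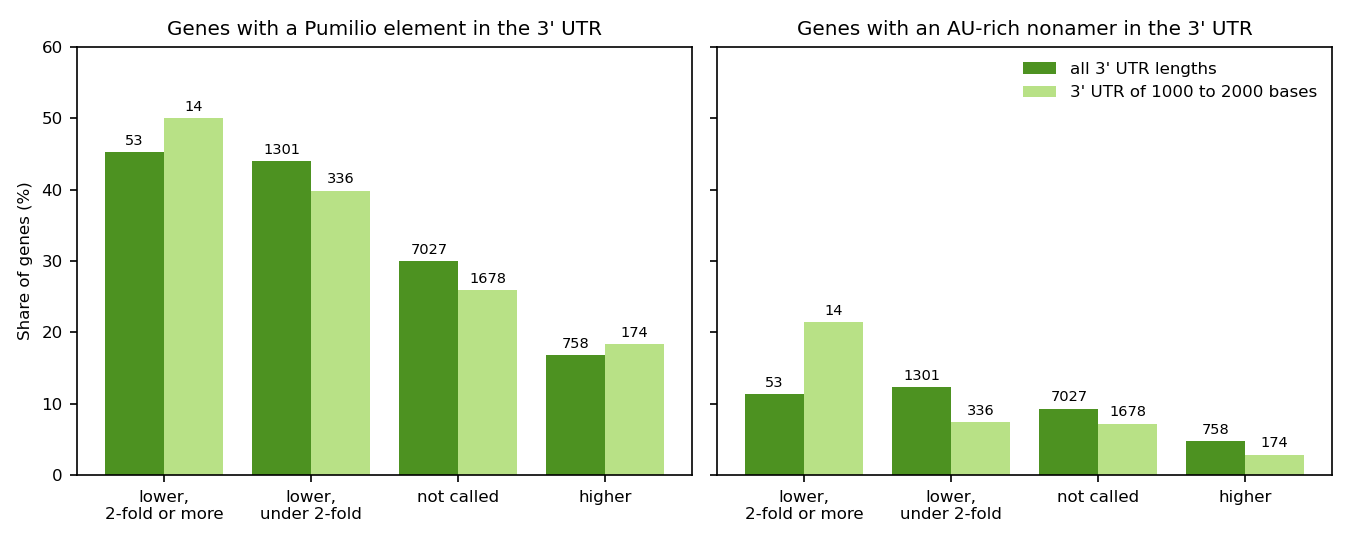
Share of coding genes with at least 5 CPM that hold a Pumilio element (left) or the AU-rich nonamer (right) in the 3' UTR, in percent (y axis from 0), by their HCT116 call from 2 to 4 h (x axis). Dark bars are all 3' UTR lengths, light bars 3' UTRs of 1000 to 2000 bases, and the number over each bar is its count of genes; the Pumilio share falls from 45.3% to 16.8% across the groups.

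The same interval in LS180 served as the comparison. There 3200 genes fell (18.5%) and 2106 rose (12.2%). Of the 1893 genes that fell in HCT116, 1610 also fell in LS180, which is 85.1% of the HCT116 and 50.3% of the LS180 falls. The change itself differed between lines for 51 genes (0.296%), 7 with a lower and 44 with a higher log2 change in HCT116. This count rested on the LS180 libraries. It was 1374 without 4 h library 1 of LS180, 17 and 20 without its 4 h libraries 2 and 3, and 7 without both. With the replicate block it was 170. For HCT116 it was 11 without 2 h library 3, 15 to 17 without 2 h library 2, 4 h library 2 or 4 h library 3, 30 without 2 h library 1 and 88 without 4 h library 1. It was 30 without 2 h library 1 of LS180, and 14 without 2 h library 2 or 3.

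DUSP6 and IER5, an immediate early gene, fell in HCT116 more than in LS180. IER5 was at 7.55, 8.85 and 8 CPM at 2 h and 5.08, 3.98 and 4.19 CPM at 4 h in HCT116 (log2 fold change -0.88) and at 2.62, 2.52 and 2.41 CPM, then 2.29, 2.66 and 2.22 CPM in LS180 (-0.07), a difference of -0.80 (edgeR adjusted p = 0.0261). For DUSP6 the changes were -1.41 and -0.36, and the difference -1.04 (edgeR adjusted p = 0.0261). In LS180 DUSP6 was at 2.09, 2.26 and 2.92 CPM at 2 h and 1.87, 1.73 and 2.07 CPM at 4 h. DUSP6 and IER5 were the 2 with at least 5 CPM and no overlap in HCT116 among the 7. The limit of 5 CPM was set on HCT116 alone, and both genes were below it in LS180. The part of these low LS180 levels in the differences was not tested. In the other direction the 5 largest under the same limits, with CCNT1 added from its list, were TRIM3, a ubiquitin ligase, DPF2, a subunit of BAF chromatin remodellers, OPA3, a mitochondrial membrane protein, INTS5, a subunit of the Integrator complex, UTP3, of the processome, and CCNT1. Genes whose HCT116 groups overlapped were left out of that ranking. Among them PPP2R2C, a phosphatase subunit, changed by 0.07 and -1.13 (difference 1.20, edgeR adjusted p = 0.000849), and the ubiquitin gene UBB by 0.03 and -0.85 (difference 0.88, edgeR adjusted p = 6.15e-05, the smallest of the 51). DPF2 was at 48.5, 51.4 and 52.7 CPM at 2 h and 44.9, 47.2 and 47.1 CPM at 4 h in HCT116 and at 13, 12.5 and 13.3 CPM, then 7.24, 5.95 and 5.44 CPM in LS180, with changes of -0.13 and -1.06. OPA3 changed by -0.23 in HCT116, which was called only in some settings, the replicate block (edgeR adjusted p = 0.0359) and the fit without 4 h library 1 (0.0287) among them.

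**Figure D5:**
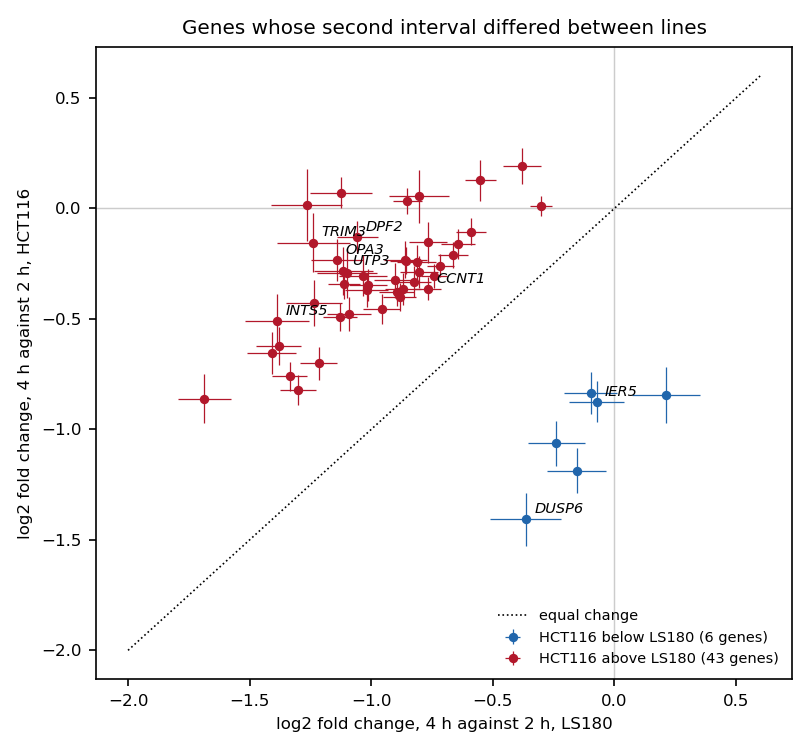
Log2 fold change from 2 to 4 h in HCT116 (y axis) against the same in LS180 (x axis) for 49 of the 51 genes whose change differed between lines; 2 lie outside the axes. Points are fitted values with ± 1 SE, blue where HCT116 fell more and red where LS180 fell more, and the dotted line marks equal change; DUSP6 and IER5 lie below it and TRIM3, DPF2, OPA3, INTS5, UTP3 and CCNT1 above it.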

How the data were processed

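Total RNA was prepared with a stranded kit, per the labels' protocols, and the deposited per-gene expected counts were made by the authors with cutadapt, STAR 2.7 and RSEM 1.3.1 on hg19, per the submitters' processing notes. The annotation release is not given in the sources used here, nor is the strand setting, so overlapping and antisense genes may share reads. Expected counts were rounded and fitted with edgeR 4.0.16 (TMM, low-count filter by group, quasi-likelihood test, Benjamini-Hochberg adjustment, threshold 0.05) over the 18 actinomycin D libraries in 6 groups, which gave 12 residual degrees of freedom. DESeq2 1.42.0 and other scalings, filters, sample sets and single-library omissions were alternatives. The scripts were tested on simulated data. Depth was 47.8 to 61.4 M counts over the 18 libraries, where M stands for 1e6. No libraries of a group were identical.

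The members and gene lists were chosen with earlier results of these data known. Named genes are STAU1 and the FOXA genes, the 10 largest falls, rises and late-only losses with at least 5 CPM and no overlap between HCT116 groups, up to 5 line differences in each direction under the same filter, both leaving out pseudogenes, unnamed clones and short noncoding RNAs, and up to 3 members of each list with the smallest adjusted p. The 15 largest falls outside histones, the late falls without an earlier call, the processome list and other members named were chosen after their values were seen, as was leaving out all libraries 1. A few members and sequences are not reported here.

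The main fit used group means without pairing, and only the replicate block paired samples by the library number in the labels. Deviations from group means correlated within each number over 9793 genes. Between 2 and 4 h the values for libraries 1, 2 and 3 were 0.49, 0.34 and 0.41. They were 0.72, 0.28 and 0.46 between 0 and 2 h, and 0.52, 0.24 and 0.28 between 0 and 4 h. Across numbers, libraries 2 and 3 correlated at 0.22 to 0.55 and library 1 with either at -0.66 to -0.37, so the clearest split was library 1 against the others. The pairing comes from the data, since no label names a shared culture or day.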

Additional observations from a re-analysis of the deposited data

Results flagged for a closer look

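The change from 2 to 4 h differed between HCT116 and LS180 for 51 genes in the edgeR contrast of the lines. Of these, 8 are listed here, with the HCT116 minus the LS180 log2 change. DUSP6 (-1.04) and IER5 (-0.80) fell more in HCT116, and both were under 5 CPM in LS180. TRIM3 (1.08), DPF2 (0.93), OPA3 (0.91), INTS5 (0.88), UTP3 (0.83) and CCNT1 (0.40) had the less negative change in HCT116. The 4 h libraries 2 and 3 of LS180 held 22.6 and 25.8% short noncoding RNA and library 1 held 17.3%, and the part of this in the differences was not tested.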

How the results depend on the processing

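The count of falls (1893) stayed within 1.5 times under every alternative run (1417 to 2229, and 1448 to 2148 without single libraries). Leaving out the libraries numbered 1, and LS180 4 h libraries 2 and 3, was added after seeing the data.

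Rises numbered 837, and 547 with the 6 libraries alone, 1806 with DESeq2, 554 with the effective length offset, 1416 with the replicate block, 28 with ribosomal protein scaling, 203 with total library size, 1444 without libraries 1 and 214 to 1270 without single libraries. Genes with a lower change in the second interval than in the first numbered 28, and 14 with the 9 HCT116 libraries, 70 with DESeq2, 114 with no filter, 60 with the replicate block, 5 with ribosomal protein scaling, 8 with total library size, 52 without libraries 1 and 8 to 56 without single libraries. Genes lost only then numbered 18, and 6, 34, 62, 35, 2, 4 and 33 under the same settings in the same order, and 3 to 35 without single libraries. Line differences numbered 51, and 425 with DESeq2, 24 with the effective length offset, 623 with no filter, 170 with the replicate block, 3 with ribosomal protein scaling, 6 with total library size, 114 without libraries 1, 7 without LS180 4 h libraries 2 and 3, and 11 to 1374 without single libraries. The cause of these shifts was not tested, except that fewer libraries or an unfiltered table change what is tested.

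STAU1 (0.03) changed sign with ribosomal protein scaling (-0.14), total library size (-0.022) and without libraries 1 (-0.0026), and ran from -0.0068 to 0.049 without single libraries. With the paired fit FOXA2, at 0 in all 6 libraries, was fitted at -0.068. Of 108 named genes the replicate block added calls for FOXA1, OPA3 and TIA1 and changed no other call. Genes with few counts, FOXA1, FOXA3, TNFSF13 and H3F3AP6 among them, are limited by depth.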
